A study of Mus musculus with 26 samples.

Results

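The comparison was between Caco-2 cells that carried a hairpin against Fgfr1op (labelled shFgfr1op, 3 libraries) and Caco-2 cells that carried a non-targeting hairpin (labelled scramble, 3 libraries). These 6 libraries, taken by their columns in the Caco-2 count table, are 6 of the 26 samples of the series. Caco-2 is an established human line from a colorectal adenocarcinoma, and it is widely used because it can take on features of small intestinal absorptive cells. In both groups the hairpin sat in a lentiviral vector with a doxycycline-inducible promoter, the ZsGreen reporter and puromycin resistance, and RNA was taken on day 3 after doxycycline. Both groups therefore shared the vector, the drug and the time, and they differed in the hairpin. A single hairpin was used against the target, so an effect of lower FGFR1OP and any other effect of that hairpin cannot be told apart here. The 2 groups were also separately transduced cells. Differences that arose between them in transduction, selection or growth cannot be told apart from the hairpin. The labels do not say whether the 3 libraries of a group came from separate cultures, or whether the cells were a pool or 1 clone, so the p-values measure the spread between these libraries, which may be technical. The labels list mouse as the organism of these samples, but every gene identifier in the table is human.

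FGFR1OP, also named FOP or CEP43, is a protein of the centrosome, the organelle that organises microtubules. The centrosome holds a pair of centrioles inside pericentriolar material. FGFR1OP sits at the distal end of the centriole and at satellites around it, where together with CEP350, CEP19 and the microtubule plus-end protein EB1 (gene MAPRE1) it is known to help anchor microtubules and start the primary cilium. In an epithelium, microtubule arrays also guide the sorting of enzymes and transporters to the apical brush border.

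The libraries held 37281821 to 43876634 counts with the Fgfr1op hairpin and 37989227 to 50965004 with scramble. A gene's level is in CPM, its reads scaled to the effective size of the library (TMM, edgeR), and changes are log2 fold changes of shFgfr1op against scramble with their standard error (SE); where a gene is said to rise or fall by a number, that number is on the log2 scale. The first principal component held 44.4% of the variance and separated the 2 groups. Of 12 markers of colon carcinoma epithelium, all passed the filter on low counts, and their summed level was 9780 to 10500 CPM with the Fgfr1op hairpin and 11020 to 11070 CPM with scramble. Some markers of other cell types were at 0 in all 6 libraries: CD68 of macrophages, KDR, TEK and EMCN of endothelium, DCN, POSTN and FAP of fibroblasts, and STMN2 of neurons. Others were detected: 5 of 10 immune, 2 of 8 endothelial, 4 of 10 stromal and 6 of 8 neural markers passed the filter. The 10 immune markers summed to 7.91 to 9.50 CPM against 10.2 to 10.8 CPM, the 8 endothelial markers to 3.12 to 4.04 against 5.92 to 6.08 CPM, the 10 stromal markers to 255.7 to 261 against 289 to 303.7 CPM, and the 8 neural markers to 30.0 to 33.9 against 28.0 to 28.5 CPM. None of these sums overlapped between the groups, and their part in the results was not tested. A sum does not stand for each member. The 6 neural markers that passed had a median log2 fold change of -0.31, with 2 called higher and 0 lower. Of the 4 stromal markers that passed, 1 was called higher and 2 lower.

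The target was measured at 6.43, 6.78 and 7.26 CPM with the Fgfr1op hairpin and 15.8, 15.9 and 15.5 CPM with scramble. Every library with the hairpin lay below every scramble library. The means were 6.82 ± 0.414 against 15.7 ± 0.208 CPM (SD, n = 3 each), which is 56.5% lower, with a log2 fold change of -1.20 ± 0.094 and an edgeR adjusted p of 1.65e-14. An exact two-sided permutation test gave p = 0.1, the smallest that 3 against 3 can give. The knockdown was partial, and the transcript was still detected in each hairpin library.

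Across all genes, edgeR called 6031 of 18905 tested (31.9%) at an adjusted p below 0.05, with 2966 higher (15.7%) and 3065 lower (16.2%) in the cells with the Fgfr1op hairpin. These shares are the background against which each gene group below is read. They pool all gene types. Of the 13750 protein-coding genes alone, 2826 were higher and 2620 lower, which are larger shares. A list of protein-coding genes would therefore hold more calls than the shares over all genes. Below, a list said to be near the background thus holds a smaller called share than protein-coding genes do. Calls of at least 2-fold made up 2.97% of all genes, 291 higher (1.54%) and 271 lower (1.43%), and the median log2 fold change of all genes was -0.01. The groups did not overlap in 8008 genes (42.4%). When each library was left out in turn, 4052 of the 6031 genes (67.2%) kept their call in all 6 fits.

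**Figure D1:**
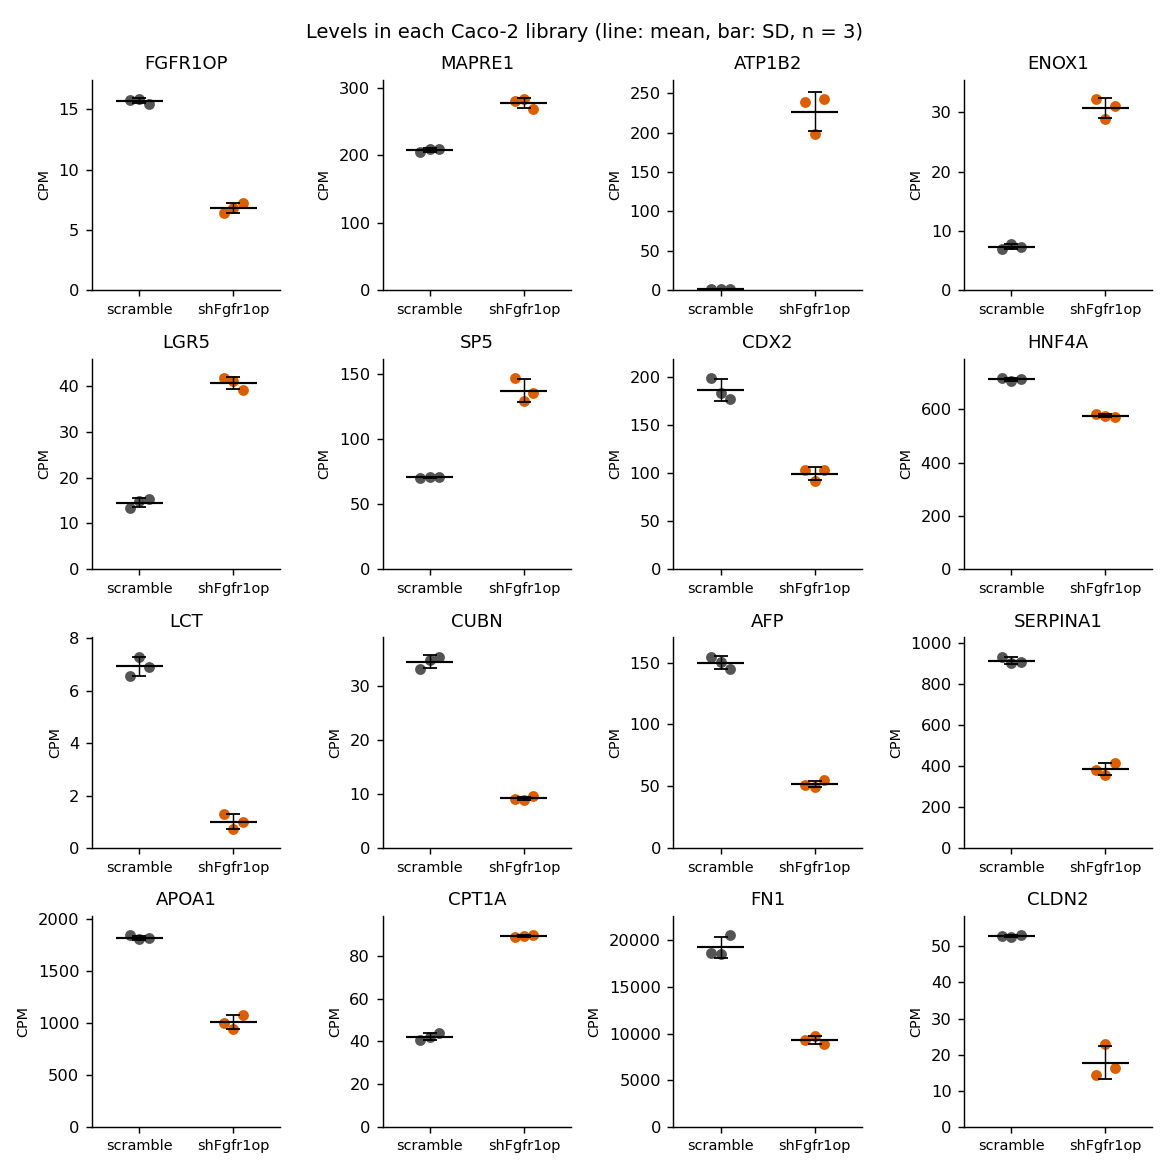
Levels of 16 genes in each Caco-2 library, in CPM on a linear axis that starts at 0, for scramble (grey) and shFgfr1op (orange). Points are libraries, horizontal lines are means and bars are SDs (n = 3 each). FGFR1OP falls from 15.7 to 6.82 CPM on average. The 2 groups overlap in none of the 16 genes, but several were chosen among genes without overlap, as were 42.4% of all genes.

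Of the 20 genes in a list of FGFR1OP and its partners at the distal centriole, 4 rose, and the only member that fell was FGFR1OP itself. The called share was 25%, against 31.9% of all genes. MAPRE1, which encodes EB1, was at 280.2, 283 and 269 CPM with the Fgfr1op hairpin and 205, 209 and 209 CPM with scramble. The hairpin libraries were all above the scramble libraries, and the log2 fold change was 0.42 ± 0.032 with an adjusted p of 1.05e-14. CCDC120, a binding partner of ninein and cytohesin, rose by 0.27, and NIN, the anchoring protein ninein, and CEP170 rose by 0.20 and 0.24. The calls of NIN and CEP170 were both lost without scramble library 1 (adjusted p = 0.0813 and 0.0525), which left 2 members higher, and a second member was lower without hairpin library 3. The direct partners CEP350 (-0.02 ± 0.051, adjusted p = 0.834) and CEP19 (0.11 ± 0.22, adjusted p = 0.765) did not pass the test.

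Among genes whose proteins build new centrioles, the called members had small rises. Of 21 members 6 rose and none fell, with a median log2 fold change of 0.06. The called share, all of it higher, was 28.6%, against 31.9% called and 15.7% higher over all genes. The rises numbered 4 without scramble library 3 and 7 without scramble library 2. CEP57, which holds pericentriolar material to the centriole, was at 107, 108 and 104 CPM with the Fgfr1op hairpin and 79.9, 80.97 and 77.2 CPM with scramble, without overlap, a change of 0.42 ± 0.039. CEP135, a protein of the cartwheel, rose by 0.45, CEP120, needed for centriole elongation, by 0.35, and CCP110, which caps the distal end and restrains cilium growth, by 0.34. Among 25 genes of the pericentriolar material and microtubule nucleation 5 rose and 5 fell. PCM1, the scaffold of centriolar satellites, fell by 0.15 on the log2 scale, and CAMSAP3, which holds microtubule minus ends at the apical side of epithelial cells, rose by 0.13. These 2 counts were not stable: 2 were higher without scramble library 1, 3 were higher without scramble library 2, and 3 were lower without scramble library 3.

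Tubulin genes that were called were all higher. Of 13 tested, 9 rose and none fell, with a median of 0.16. TUBA4A was at 7.48, 9.69 and 8.39 CPM with the Fgfr1op hairpin and 6.46, 5.64 and 6.64 CPM with scramble, which do not overlap, a change of 0.45 ± 0.12 (adjusted p = 0.0023). The abundant TUBB and TUBB4B rose by 0.16 and 0.18. Tubulin genes are close in sequence, and reads shared between them could be split, so single members are uncertain.

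In the list for the primary cilium and the hedgehog pathway, which signals through it, 5 of 32 genes rose and 4 fell, close to the background shares. IHH, the hedgehog ligand of the intestinal epithelium, was at 9.84, 9.85 and 10.4 CPM with the Fgfr1op hairpin and 26.4, 26.2 and 24.9 CPM with scramble. Every hairpin library was lower, and the log2 fold change was -1.36 ± 0.076. GLI1, a transcription factor and target of the pathway, changed by -2.40 ± 0.62 at low levels (0.0879 against 0.493 CPM). The kinesin-2 motor subunits of ciliary transport, KIF3A and KIF3B, changed by 0.34 and -0.34, and both were called. Intraflagellar transport gene IFT88 did not pass (0.14 ± 0.085, adjusted p = 0.216).

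The gene with by far the largest rise at a moderate level was ATP1B2, which encodes a beta subunit of the sodium pump that is best known from brain. It was at 239.5, 198 and 243 CPM with the Fgfr1op hairpin and 1.02, 1.26 and 1.24 CPM with scramble. The gene was close to absent with scramble and well expressed in each hairpin library, a log2 fold change of 7.58 ± 0.14 with an adjusted p of 1.09e-08. Other beta subunits, looked at after this value was seen, changed far less: ATP1B1 by -0.34 and ATP1B3 by 0.15.

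A few further genes went from nearly no counts to clear counts in every hairpin library; apart from PLAT they were picked after their values were seen. TBX18, a T-box transcription factor of the embryonic heart and limb, had 54, 34 and 62 counts with the Fgfr1op hairpin and 0 in each scramble library, at least 55.6-fold higher against a floor of 3 counts over the group. DOCK2, an exchange factor for Rac in blood cells, had 50, 57 and 98 counts against 0, 4 and 4. VWA3A had 117, 123 and 163 counts against 6, 3 and 8. In all 3 the groups were far apart. PLAT, tissue-type plasminogen activator, had 208, 200 and 283 counts against 6, 14 and 12, which is 24.0-fold at equal depth. IL23R, a receptor for interleukin 23 and a member of the Crohn's disease list, had 28, 12 and 18 counts against 0, 2 and 2. All hairpin libraries were again above scramble, but at well under 1 CPM. The counts of TBX18 and IL23R were all even numbers, so they may stand for fewer molecules than counts, which was not tested.

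Among genes with a mean of at least 2 on the log2 CPM scale, ENOX1, a cell surface oxidase, was at 32.3, 28.8 and 30.99 CPM with the Fgfr1op hairpin and 6.97, 7.84 and 7.27 CPM with scramble, without overlap (2.06 ± 0.079). LOXL4, a lysyl oxidase that crosslinks matrix, rose by 1.56, PROM2, a pentaspan membrane protein of epithelial protrusions, by 1.51, RASSF2, a Ras-association protein, by 1.48, GFRA3, a coreceptor for the growth factor artemin, by 1.45, COL9A3 by 1.34 and the tetraspanin CD82 by 1.32. PRKAA1, the catalytic alpha-1 subunit of the energy sensor AMP kinase, was at 47.9, 43.9 and 50.05 CPM with the Fgfr1op hairpin and 19.5, 18.02 and 20.1 CPM with scramble, all higher with the hairpin (1.30 ± 0.062). Also among the 20 largest rises were COL5A1 (1.23), the axonal motor KIF1A (1.19), the glycolipid carrier GLTP (1.19) and the carboxylesterase CES3 (1.27). The 20 largest rises and the 20 largest falls were taken only among genes without overlap, so the separation of their groups was set by that choice.

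The 20 largest falls at that level included several genes of absorptive and secretory epithelium. Among them were the hydrolases LCT and XPNPEP2, the transporters SLC51B and SLC44A4, the receptor CUBN, the claudin CLDN2, the villin relative VILL and the mucus lectin ZG16. PHGR1, a small protein of gut epithelium, was at 11.02, 8.60 and 11.9 CPM with the Fgfr1op hairpin and 36.5, 38.9 and 38.2 CPM with scramble. All hairpin libraries were far below scramble, a change of -1.84 ± 0.08. HSD3B1, a steroid dehydrogenase, fell by 1.76, the kinesin KIF26B by 1.74, PDGFRB, a growth factor receptor, by 1.59, and DUSP5, a phosphatase that acts on ERK, by 1.59 on the log2 scale.

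**Figure D2:**
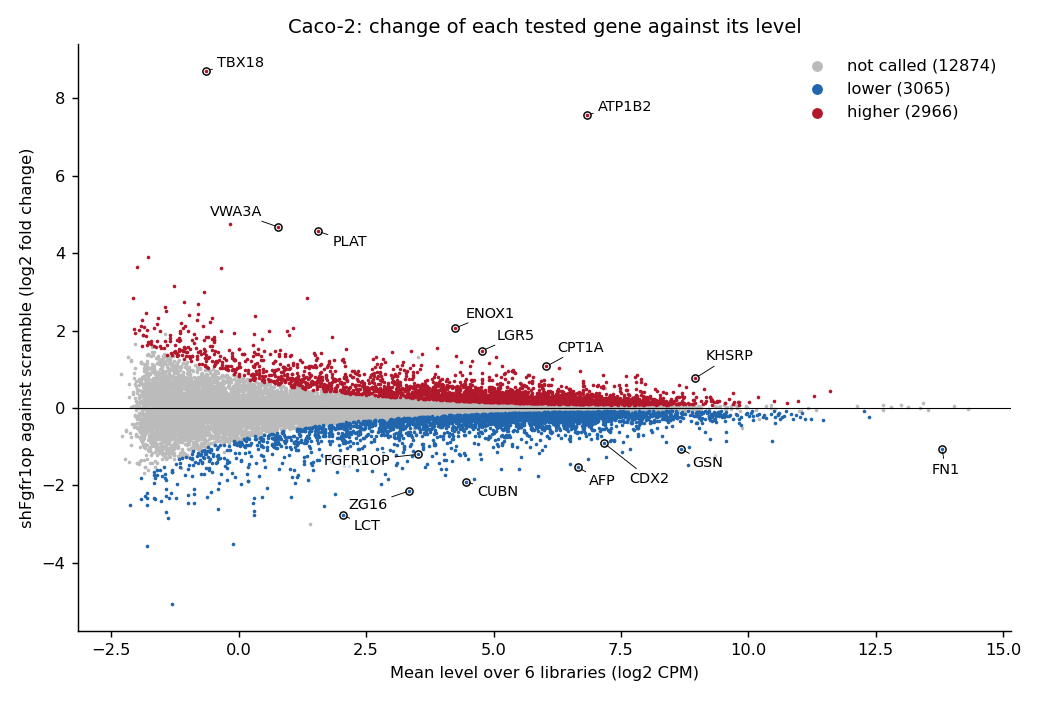
Log2 fold change of shFgfr1op against scramble for each of the 18905 tested genes, against its mean level over the 6 libraries in log2 CPM. Colours mark the 2966 genes called higher (red), the 3065 called lower (blue) and the rest (grey), and circles mark named genes; ATP1B2 stands at 7.58 among genes of its level.

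Brush border hydrolases, the enzymes that finish the digestion of sugars and peptides at the apical membrane, were among the groups of lowest median. Of 19 tested, 10 fell, 6 of them at least 2-fold, and 2 rose, with a median log2 fold change of -0.69 against -0.01 over all genes. LCT, lactase, was at 1.31, 0.739 and 0.972 CPM with the Fgfr1op hairpin and 6.57, 7.30 and 6.90 CPM with scramble, and all 3 hairpin libraries were far below scramble. ANPEP, aminopeptidase N, was at 8.29, 6.36 and 8.93 CPM with the Fgfr1op hairpin and 16.7, 15.9 and 16.8 CPM with scramble, without overlap (-1.06 ± 0.10). MGAM2, a maltase-glucoamylase, fell by 2.30, DPP4, a dipeptidyl peptidase, by 0.69 and GGT1, a glutamyl transferase, by 0.75. SI, sucrase-isomaltase, was at 6.56, 4.22 and 8.09 CPM with the Fgfr1op hairpin and 9.97, 12.9 and 12.4 CPM with scramble (-0.90 ± 0.22, adjusted p = 0.02). Its groups did not overlap, but its call was lost without scramble library 2 (adjusted p = 0.0563), scramble library 3 (0.0538) or hairpin library 1 (0.113). The rises numbered 1 without scramble library 2, hairpin library 2 or hairpin library 3.

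In the actin core and scaffold of the microvilli 13 of 22 genes fell and 6 rose (median -0.26). MYO1A, the brush border myosin that tethers the membrane to actin, fell from 11.7 to 5.04 CPM (-1.21 ± 0.11), MYO7B and CALML4, of the complex that links microvillus tips, fell by 0.89 and 0.86, the microvillus protocadherin CDHR5 by 0.53, and CDH17, the intestinal cadherin, by 0.86. STX3, a syntaxin of the apical membrane, rose by 0.32. The core proteins VIL1 (0.03 ± 0.032, adjusted p = 0.55) and EZR (0.04 ± 0.03, adjusted p = 0.36) did not pass.

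Transporters were mixed. Of 33 nutrient transporters 15 fell and 7 rose, and the median of -0.09 was near that of all genes. The fructose carrier SLC2A5 changed by -2.23 ± 0.18, the basolateral glucose carrier SLC2A2 by -0.96 ± 0.086 and SLC3A1, the heavy chain of the cystine transporter, by -1.33 ± 0.08. SLC5A1, the sodium-glucose cotransporter, fell by 2.30 at a level below 1 CPM in both groups on average. SLC28A3, a nucleoside transporter, rose by 2.33 and SLC34A2, a phosphate transporter, by 1.00, both from a level below 1 CPM with scramble on average; these 2 genes fall outside the rule for named genes and were chosen after their values were seen. The call of SLC34A2 was lost without scramble library 1 (adjusted p = 0.0781) or hairpin library 2 (adjusted p = 0.0985). SLC2A3, a high-affinity glucose carrier, rose by 0.44. In bile acid and cobalamin uptake 5 of 11 genes fell and 2 rose. CUBN, the cobalamin receptor cubilin, was at 9.03, 8.95 and 9.54 CPM with the Fgfr1op hairpin and 33.1, 34.8 and 35.4 CPM with scramble, and SLC51B, a subunit of the basolateral bile acid exporter, at 2.68, 3.35 and 3.91 CPM with the Fgfr1op hairpin and 10.3, 11.7 and 10.8 CPM with scramble. In both genes no hairpin library reached any scramble library. Of 24 genes of iron handling 9 fell and 2 rose, and HEPH, the ferroxidase hephaestin, had the largest fall (-1.13 ± 0.06).

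Fat absorption and lipoprotein genes fell in 21 of 31 cases, and 6 rose (median -0.40). APOA1, the main protein of high-density lipoprotein, was at 1001, 942 and 1078 CPM with the Fgfr1op hairpin and 1845, 1807 and 1818 CPM with scramble, without overlap (-0.86 ± 0.035, adjusted p = 2.56e-16). MTTP, which loads lipid onto apolipoprotein B, fell by 1.07, SOAT2, which makes cholesteryl esters, by 1.19, and ABCA1, a cholesterol exporter, by 1.09. APOB did not pass (-0.29 ± 0.13, adjusted p = 0.193) but did so without scramble library 1 (adjusted p = 0.0189). CPT1A, which brings fatty acids into mitochondria for oxidation, went the other way at 88.7, 89.5 and 89.7 CPM with the Fgfr1op hairpin and 40.5, 42.3 and 44.1 CPM with scramble (1.08 ± 0.045, adjusted p = 8.01e-24). Its 3 hairpin libraries were nearly equal and all far above the scramble ones.

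Genes for proteins that liver secretes, and that Caco-2 cells are known to make in part, formed the list of lowest median. Of 42 tested 34 fell, 14 of them at least 2-fold, and 2 rose, with a median of -0.73. AFP, alpha-fetoprotein, was at 50.8, 49.4 and 54.6 CPM with the Fgfr1op hairpin and 155, 151 and 144 CPM with scramble. ALB, albumin, was at 48.5, 45.7 and 51.8 CPM with the Fgfr1op hairpin and 141, 134 and 123 CPM with scramble, and SERPINA1, alpha-1 antitrypsin, at 382, 358 and 415 CPM with the Fgfr1op hairpin and 935, 903 and 906 CPM with scramble. All 3 genes were separated between the groups with little spread inside them, and their log2 fold changes were -1.54 ± 0.042, -1.44 ± 0.048 and -1.25 ± 0.039. HABP2, a serine protease of plasma, fell by 1.59, CP, the copper carrier ceruloplasmin, by 1.61, FGA, the fibrinogen alpha chain, by 0.82, and TTR, transthyretin, by 0.63. The 2 rises were 1 when scramble library 1, scramble library 2 or hairpin library 3 was left out.

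The transcription factors that set intestinal and endodermal identity fell in 16 of 30 cases and rose in 3 (median -0.26). CDX2, the master factor of intestine, was at 103, 91.6 and 104 CPM with the Fgfr1op hairpin and 199, 183 and 177 CPM with scramble, without overlap (-0.91 ± 0.047, adjusted p = 2.88e-13). HNF4A, a factor of absorptive and liver cells, was at 584, 576 and 572 CPM with the Fgfr1op hairpin and 719, 708 and 713 CPM with scramble, a smaller change of -0.31 ± 0.028. PRDM1, a transcriptional repressor of the fetal and neonatal gut that holds back the adult enterocyte programme, fell by 1.24, ISX, an intestinal homeobox factor, by 1.03, ELF3 by 0.72 and NR5A2 by 0.68. SOX2, a factor of foregut and of pluripotent cells, was at 15.98, 15.6 and 16.1 CPM with the Fgfr1op hairpin and 8.09, 7.52 and 7.98 CPM with scramble (1.02 ± 0.09), higher in each hairpin library.

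Wnt signalling, in which beta-catenin drives crypt genes, is constitutively active in many colorectal cancer lines through loss of APC. Of 21 targets and feedback genes of the pathway 16 rose and 2 fell, with the highest median of all lists, 0.43. LGR5, the R-spondin receptor of crypt base stem cells, was at 41.9, 41.1 and 39.2 CPM with the Fgfr1op hairpin and 13.4, 14.8 and 15.4 CPM with scramble. AXIN2, a negative feedback gene, was at 58.4, 55.6 and 56.3 CPM with the Fgfr1op hairpin and 36.3, 37.3 and 36.7 CPM with scramble (0.63 ± 0.05), and the groups did not overlap in either gene. LEF1, a nuclear partner of beta-catenin, rose by 1.38, SP5 by 0.96, the inhibitor NKD1 by 0.93 and the cyclin CCND1 by 0.43. MYC, another target, was at 44.3, 47.2 and 41.2 CPM with the Fgfr1op hairpin and 59.2, 59.95 and 62.2 CPM with scramble, lower in every hairpin library (-0.45 ± 0.051). RNF43, a ligase that removes Wnt receptors, did not pass (0.06 ± 0.044, adjusted p = 0.311). The count of falls was 1 when scramble library 1, scramble library 3, hairpin library 1 or hairpin library 2 was left out.

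Upstream in the pathway, 14 of 35 ligands, receptors and signal carriers rose and 9 fell, and 9 rose without scramble library 1 or without hairpin library 1. CTNNB1, beta-catenin, rose by 0.28, WLS, the carrier that brings Wnt ligands to the surface, by 0.71, the receptor FZD6 by 0.72 and the ligand WNT6 by 0.96, while the receptors FZD5 and FZD4 fell by 0.56 and 0.35. Intestinal stem cell genes, a list that shares members with the targets, rose in 13 of 22 cases and fell in 2 (median 0.27). SMOC2 rose by 1.07 and the crypt factor ASCL2 by 0.62. CDK6, a kinase of G1, rose by 0.68, and PROM1 and EPHB4 fell by 0.32 and 0.35. Ephs and ephrins, guidance receptors that position cells along the crypt, held 8 rises and 4 falls among 15, with EPHB3 (0.54) and EFNB3 (0.85) among the rises.

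**Figure D3:**
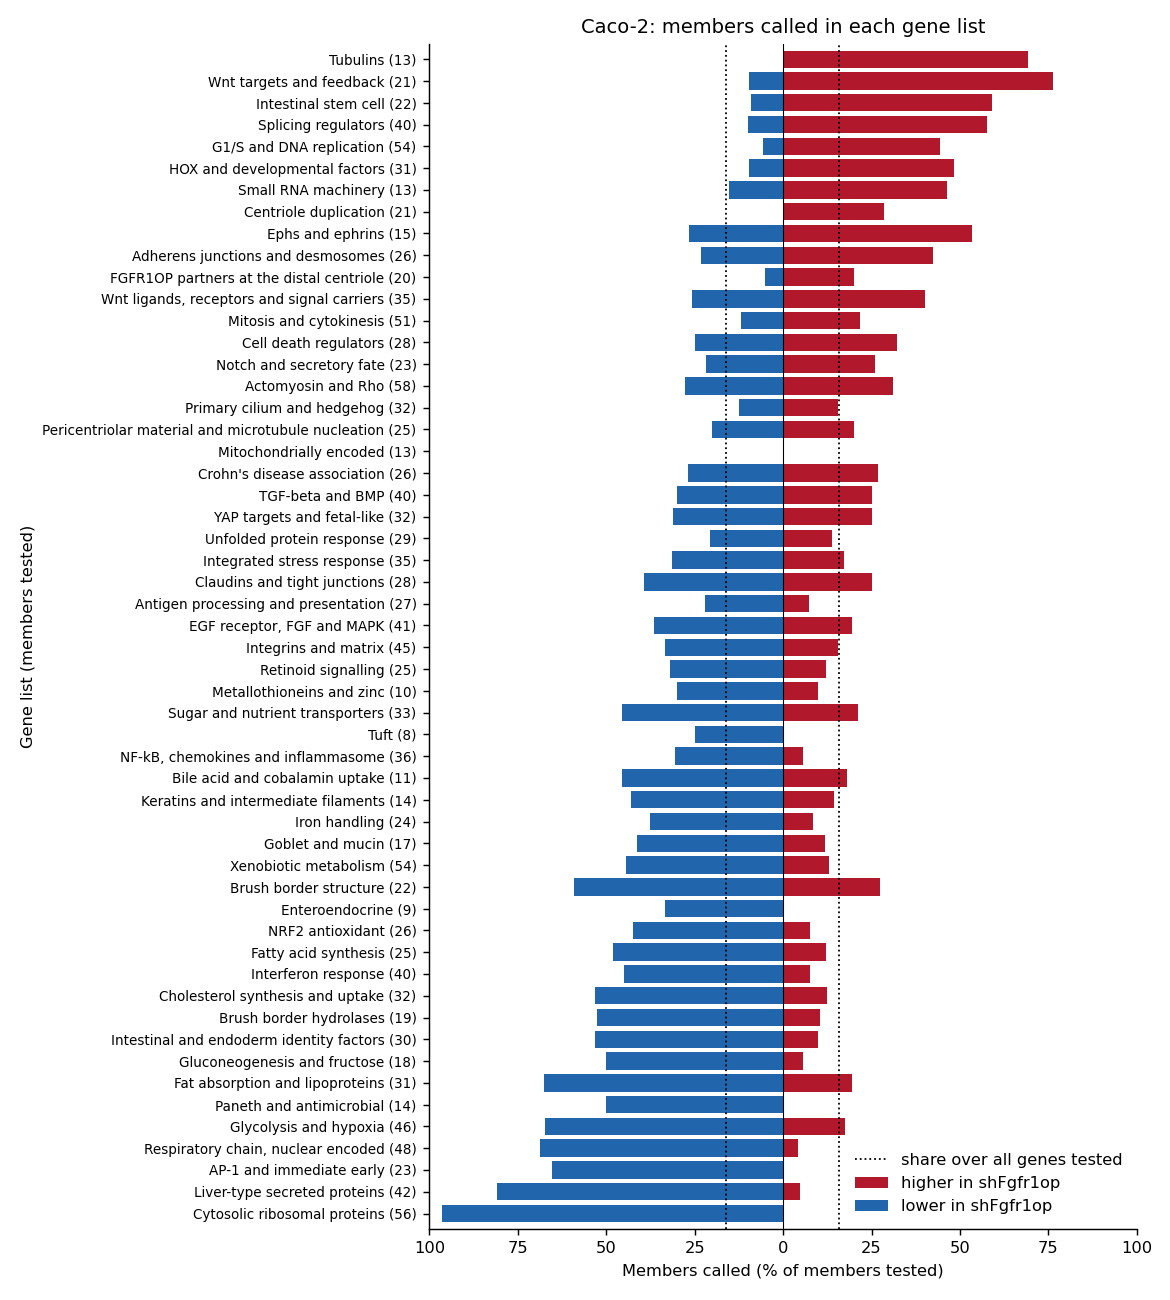
Share of tested members called higher (red, to the right) and lower (blue, to the left) in shFgfr1op for each of 54 gene lists, with the number tested in parentheses, ordered by the difference of the 2 shares. Dotted lines mark the shares over all genes, 15.7% higher and 16.2% lower; cytosolic ribosomal proteins stand at the bottom with 54 of 56 lower.

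Genes of the secretory lineages were mostly lower where they were called, though many members are scarcely expressed in Caco-2. Of 17 goblet and mucin genes 7 fell and 2 rose, or 1 rose without hairpin library 1. ZG16, a lectin of mucus, was at 3.39, 3.72 and 3.91 CPM with the Fgfr1op hairpin and 15.3, 17.7 and 15.8 CPM with scramble, and TFF1, a trefoil peptide, was at 0.315, 0.132 and 0.407 CPM with the Fgfr1op hairpin and 2.04, 2.01 and 1.93 CPM with scramble. The groups did not overlap in these genes, whose changes were -2.14 ± 0.11 and -2.77 ± 0.33. MUC13, a membrane mucin, fell by 1.27. Of 14 Paneth and antimicrobial genes 7 fell and none rose (median -0.64), with LYZ, lysozyme, at -0.57 ± 0.071 and DUOX2, which makes hydrogen peroxide, at -0.96 ± 0.11. In the Notch pathway, which sets the choice between absorptive and secretory fate, 6 of 23 genes rose and 5 fell. NOTCH1 rose by 0.32 and the ligand DLL1 by 0.72, whereas the target HES1 fell by 0.27 and the ligand DLL4 by 0.68.

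Among claudins and other tight junction genes 11 of 28 fell and 7 rose. CLDN2, which forms a pore for cations, was at 14.3, 22.8 and 16.3 CPM with the Fgfr1op hairpin and 52.9, 52.7 and 53.02 CPM with scramble (-1.57 ± 0.18, adjusted p = 0.00285). Its scramble libraries were tightly grouped and its hairpin libraries more spread, with a gap between them. CLDN1 and CLDN4 fell by 0.77 and 0.36, and CLDN6, a claudin of embryonic epithelium, rose by 0.41. OCLN, occludin, did not pass (-0.10 ± 0.041, adjusted p = 0.0546). Of 26 adherens junction and desmosome genes 11 rose and 6 fell, with 7 rises without scramble library 2. CDH1, E-cadherin, was not called (-0.05 ± 0.027, adjusted p = 0.17), CDH3, P-cadherin, rose by 0.52, and the gap junction gene GJB2 by 0.93 while GJB1 fell by 0.66.

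The actomyosin list of 58 genes held 18 rises and 16 falls, and its median was 0.01. GSN, gelsolin, which severs and caps actin, was at 263, 259 and 274 CPM with the Fgfr1op hairpin and 565, 555 and 538 CPM with scramble, all lower with the hairpin (-1.06 ± 0.031, adjusted p = 1.21e-29). MYL12A, a myosin light chain, rose by 0.57 and CDC42EP3, an effector of CDC42, by 0.65. In the matrix and integrin list 15 of 45 genes fell and 7 rose. FN1, fibronectin, one of the most abundant transcripts in these cells, was at 9308, 9709 and 8847 CPM with the Fgfr1op hairpin and 18674, 18532 and 20533 CPM with scramble (-1.05 ± 0.045). The highest hairpin library was far below the lowest scramble library. SPARC, a matrix binding protein, fell by 0.89, COL12A1 by 0.70 and the inhibitor of metalloproteinases TIMP3 by 0.66. VIM, vimentin, fell as well (-1.32 ± 0.072, 12.8 ± 1.27 against 32.05 ± 0.928 CPM). The stromal markers DCN, POSTN and FAP were at 0, but 4 of the 10 stromal markers passed the filter. The summed stromal markers were lower with the Fgfr1op hairpin, as given above, although 1 of these 4 was called higher, by at least 2-fold, and 2 were called lower.

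Nearly all cytosolic ribosomal protein genes were slightly lower. Of 56 tested 54 fell and none rose, within a narrow range of log2 fold changes from -0.34 to -0.05 and a median of -0.19; RPS15 (-0.05) and RPS10 (-0.23) were not called. RPS3 was at 1999, 2018 and 1968 CPM with the Fgfr1op hairpin and 2449, 2399 and 2449 CPM with scramble (-0.29 ± 0.026), and RPS18 changed by -0.34 ± 0.031. The groups did not overlap in RPS3. Ribosomal protein genes together took 4.20 to 4.36% of the counts of the hairpin libraries and 4.70 to 4.79% of the scramble libraries. Processed pseudogenes with a ribosomal protein symbol, whose reads may belong to the parent genes, fell in 73 of 277 cases and rose in 1 (median -0.297). Other processed pseudogenes also fell more often than they rose, with 173 of 1681 lower and 23 higher (median -0.153).

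Nuclear genes of the respiratory chain moved likewise, with 33 of 48 lower and 2 higher (median -0.19). ATP5F1A, the alpha subunit of ATP synthase, fell by 0.36, and UQCRC2, of complex III, by 0.40. UQCRFS1, the Rieske iron-sulfur protein of the same complex, rose instead, from 88.2 to 129 CPM (0.55 ± 0.038). Without scramble library 2 the rises numbered 1. None of the 13 genes encoded by mitochondrial DNA was called, and their median was 0.04; none (0) had an unadjusted p below 0.05 in edgeR, where 39.8% of all genes did. Leaving out scramble library 3 gave 1 lower call and leaving out hairpin library 2 gave 1 higher call. The share of mitochondrial counts, 10.9 to 12.9% with the hairpin and 10.5 to 11.7% with scramble, overlapped between the groups.

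**Figure D4:**
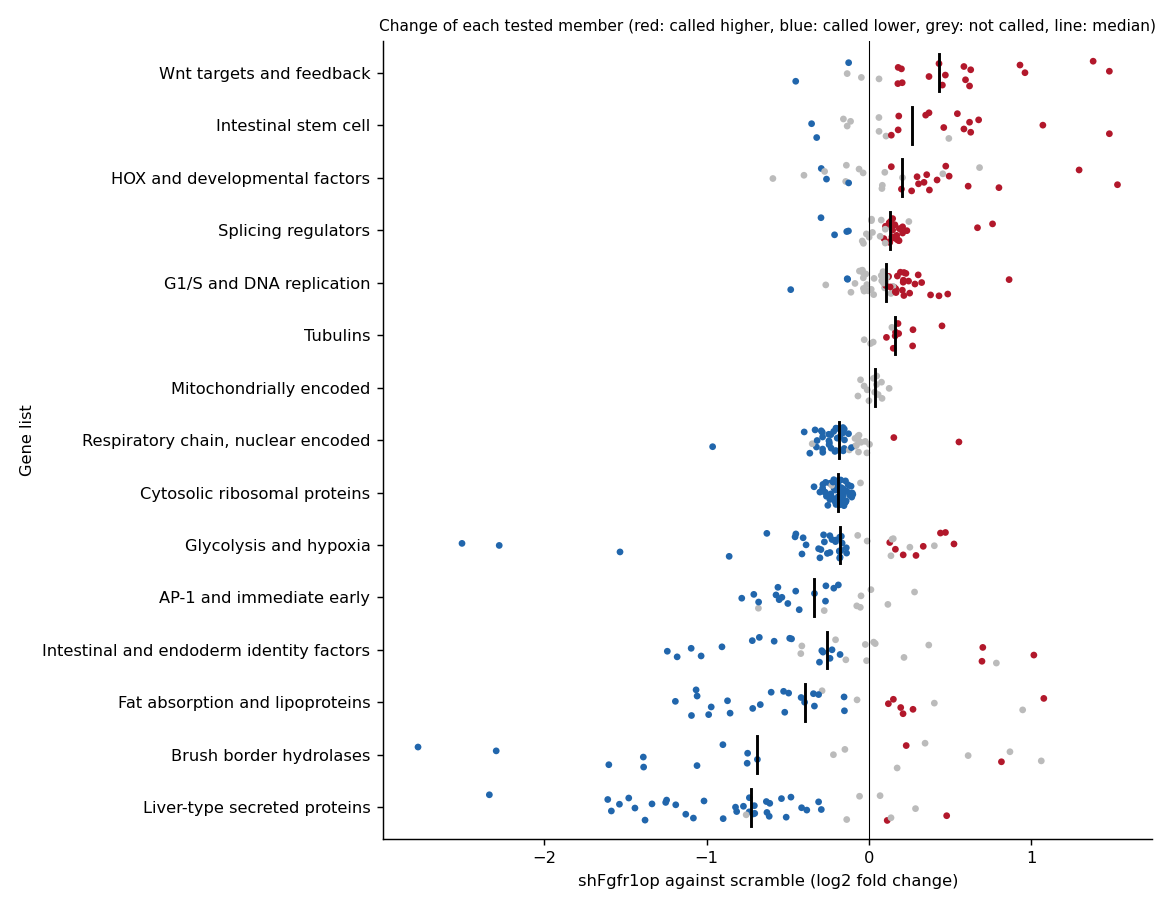
Log2 fold change of every tested member of 15 gene lists, 1 point per gene (red: called higher, blue: called lower, grey: not called), with the median of each list as a black line. Ribosomal protein genes form a narrow cluster around -0.19, whereas liver-type secreted proteins spread down to -2.34 around a median of -0.73.

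Most genes called in sugar metabolism were lower as well. Of 46 genes of glycolysis and hypoxia 31 fell and 8 rose (median -0.18). GPI, of the second step of glycolysis, fell by 0.39, GAPDH by 0.28, HK2, a hexokinase, by 0.31 and NDRG1, a gene induced by low oxygen, by 0.86, while PKM, pyruvate kinase, rose by 0.29. Of 18 genes of gluconeogenesis and fructose use 9 fell and 1 rose, or 2 without hairpin library 3. Cholesterol synthesis and uptake had 17 falls and 4 rises among 32 genes. HMGCS1, an early enzyme of the pathway, fell by 0.53 and INSIG1, which retains its regulator, by 0.40, while TM7SF2, a late sterol reductase, rose by 0.59. Fatty acid synthesis had 12 falls and 3 rises among 25, with FASN down by 0.25 and SCD by 0.25 on the log2 scale.

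Genes that process drugs and steroids fell in 24 of 54 cases and rose in 7. SULT1B1, a sulfotransferase, fell by 1.65, AKR1C1 and AKR1C2, aldo-keto reductases that are near-identical and so uncertain individually, by 1.18 and 0.99, and GSTA1 by 0.70. CES3 and the alcohol dehydrogenase ADH6 rose by 1.27 and 0.85. In the list of NRF2 antioxidant genes 11 of 26 fell and 2 rose, with 7 falls without scramble library 1 and 4 rises without hairpin library 3. Retinoid genes had 8 falls and 3 rises among 25, and CRABP2, which carries retinoic acid to its receptor, had the largest rise (0.98 ± 0.055).

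Genes of DNA replication and the G1/S step rose in 24 of 54 cases and fell in 3, by small amounts (median 0.11). This count of rises was not stable: it was 17 without hairpin library 2, 19 without scramble library 1 and 29 without hairpin library 3. PCNA, the sliding clamp, was at 183, 193 and 169 CPM with the Fgfr1op hairpin and 149, 151 and 158 CPM with scramble, without overlap (0.25 ± 0.039). CCND2, a D-type cyclin, rose by 0.86, GINS3, of the replicative helicase, by 0.48, and CCND3 fell by 0.48. Of 51 genes of mitosis and cytokinesis 11 rose and 6 fell, which is near the background. The rises numbered 6 without scramble library 1 or hairpin library 2 and 7 without scramble library 2 or hairpin library 1, and the falls 3 without hairpin library 3. MKI67, the proliferation marker, was not called (0.04 ± 0.072, adjusted p = 0.757), though it was higher without scramble library 3 (adjusted p = 0.0112).

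Of 28 regulators of cell death 9 rose and 7 fell, with the inhibitor of apoptosis BIRC3 (0.90) and the promoter of apoptosis BIK (0.84) both among the rises.

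Called genes of the interferon response, of NF-kB signalling and of antigen presentation were mostly lower. In the interferon response 18 of 40 genes fell and 3 rose (median -0.25). IFIT1, which binds viral RNA, was at 2.99, 3.11 and 2.42 CPM with the Fgfr1op hairpin and 6.46, 6.60 and 8.98 CPM with scramble, all lower with the hairpin (-1.38 ± 0.15). IFIT3 fell by 1.43 and TRIM14 by 0.85, and HERC5, a ligase for ISG15, rose by 1.27. Of 36 genes of NF-kB signalling, chemokines and the inflammasome 11 fell and 2 rose, with IL18 down by 0.53 and NFKBIA, the inhibitor of NF-kB, by 0.26. In that list 36.1% were called, not far from the 31.9% of all genes. Of 27 genes of antigen presentation 6 fell and 2 rose, or 4 rose without hairpin library 3. The falls numbered 4 without scramble library 1 or hairpin library 2. The called share of 29.6% was near the 31.9% of all genes, and the median was -0.01. Members of the Crohn's disease association list, a disease of the gut, were evenly split with 7 rises and 7 falls among 26.

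Of 23 AP-1 and immediate early genes 15 fell and none was called higher (median -0.34), although 1 was higher without hairpin library 1 or 3. FOS was at 5.30, 6.65 and 6.15 CPM with the Fgfr1op hairpin and 9.70, 12.02 and 9.39 CPM with scramble (-0.78 ± 0.12), without overlap. FOSL2 fell by 0.68 and ZFP36, which degrades messenger RNA, by 0.57, while JUN was not called (0.01 ± 0.063, adjusted p = 0.917). In the list of EGF receptor, FGF and MAPK genes 15 of 41 fell and 8 rose. DUSP5 was at 8.16, 10.3 and 6.56 CPM with the Fgfr1op hairpin and 25.2, 26.1 and 23.5 CPM with scramble, all lower with the hairpin. The receptor ERBB3 fell by 0.61, EGFR rose by 0.17, and ETV5, a factor downstream of ERK, rose by 0.61. Among 40 TGF-beta and BMP genes 12 fell and 10 rose. Leaving out each library in turn gave 8 to 12 falls and 8 to 12 rises. BMP4 and BMP2, ligands of the gut, went opposite ways at 0.59 ± 0.047 and -0.78 ± 0.044, the receptor BMPR2 rose by 0.71, and the pseudoreceptor BAMBI fell by 0.87. Of 32 YAP targets and fetal-like genes 8 rose and 10 fell (median -0.03). ANXA8L1 and ANXA8, annexins of near-identical sequence whose reads may be split between them, fell by 0.90 and 0.58, and CLU, the fetal-like marker clusterin, by 0.37. ANKRD1, a YAP target, rose by 0.53 and TEAD2, a partner of YAP, by 0.54.

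Regulators of splicing rose in 23 of 40 cases and fell in 4 (median 0.13). KHSRP, which binds introns and unstable messenger RNA, was at 627, 614 and 624 CPM with the Fgfr1op hairpin and 372, 364 and 364 CPM with scramble, and MBNL3 at 295, 293 and 289 CPM with the Fgfr1op hairpin and 174, 186 and 191 CPM with scramble. The 2 groups stood far apart in both genes, whose changes were 0.76 ± 0.029 (adjusted p = 3.21e-25) and 0.67 ± 0.034, larger than any other member of the list. SRSF6 rose by 0.21 and HNRNPA1 fell by 0.21. In the small RNA machinery, through which the hairpin itself acts, 6 of 13 genes rose and 2 fell. The rises numbered 4 to 6 when each library was left out in turn. DICER1, which cuts hairpins to their final length, was at 90.8, 86.9 and 91.6 CPM with the Fgfr1op hairpin and 64.6, 66.6 and 68.7 CPM with scramble (0.43 ± 0.042), higher in each hairpin library, and AGO2, which cleaves the target, at 25.6, 23.1 and 25.5 CPM with the Fgfr1op hairpin and 28.4, 31.5 and 34.7 CPM with scramble (-0.35 ± 0.067), lower in each.

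HOX and other developmental factors rose in 15 of 31 cases and fell in 3 (median 0.21), and the falls numbered 1 without scramble library 1 or hairpin library 2. HOXA11 was at 1.94, 2.06 and 1.72 CPM with the Fgfr1op hairpin and 0.831, 0.638 and 0.520 CPM with scramble (1.53 ± 0.28), without overlap. HOXC10 rose by 0.80, HOXB13 by 0.61 and HOXA9 by 0.49.

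Stress programmes of the endoplasmic reticulum were mixed. Of 29 genes of the unfolded protein response 6 fell and 4 rose, with 2 rises without scramble library 1 and 7 without hairpin library 3. HSPA5, the chaperone BiP, was at 482, 479.6 and 455 CPM with the Fgfr1op hairpin and 612, 633 and 623 CPM with scramble (-0.40 ± 0.03), all lower with the hairpin. Of 35 genes of the integrated stress response 11 fell and 6 rose. Leaving out each library in turn gave 8 to 12 falls and 5 to 8 rises. MTHFD2, of mitochondrial folate metabolism, rose by 0.57 and PSPH, of serine synthesis, fell by 0.49, whereas ATF4, the factor that drives the response, was not called (0.01 ± 0.032, adjusted p = 0.808).

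The remaining lists were small. Of 9 enteroendocrine genes 3 fell and none rose, with 1 rise without scramble library 3 or hairpin library 3, and the secretory granule gene PCSK1N fell by 0.70. Of 8 tuft cell genes 2 fell, or 1 without scramble library 2, scramble library 3 or hairpin library 3. Of 14 keratins and other intermediate filament genes 6 fell and 2 rose, where KRT18, a keratin of simple epithelium, fell by 0.21 and LMNB2, a nuclear lamin, rose by 0.22. The falls numbered 4 to 6 when each library was left out in turn. Of 10 metallothionein and zinc genes 3 fell and 1 rose, with no rise without scramble library 2 or hairpin library 1. SLC39A5, a zinc importer of the basolateral membrane, fell by 0.39.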

How the data were processed

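The authors deposited whole-number counts of RNA sequencing reads per human Ensembl gene. STAR and DESeq2 are named, without versions, per the submitters' processing notes; the build of the Caco-2 table, strand use and the handling of reads that map to several places are not given in the sources used here, so near-identical and overlapping genes may share reads. Columns carry the end of each hairpin's catalogue number, which the labels give, and were matched on it. Of 55209 entries, 116 repeats with identical counts were removed. Replicates of a group differed by more than the sampling noise of independent counts (chi-square per degree of freedom at least 3.98). Many low counts were even numbers, so counts may not be independent, which was not tested. Genes were filtered with filterByExpr, scaled by TMM and tested with the quasi-likelihood F test of edgeR 4.0.16 (R 4.3.3), robust dispersions, only the 6 Caco-2 libraries in the fit, and Benjamini-Hochberg adjustment over all genes tested. A gene was called at an adjusted p below 0.05, and its SE is the log2 fold change divided by the square root of F. The fit was run on simulated counts with the same dispersion for all genes and far fewer changed genes than were called here. That run checks the code only, since its setting differs from these data. Alternatives used limma 3.58.1 and DESeq2 1.42.0 among others. The comparison, the 55 gene lists and the rule for named genes were chosen with earlier results of these data known. The rule takes the target, its partners, the 20 largest rises and falls among called genes without overlap whose log2 CPM averaged 2 or more, and from each list the first 2 members, the 6 of smallest p and the 3 called of largest change (log2 CPM averaging 0 or more); the text gives a selection, and some genes and 1 list are not reported here. SERPINA1, RNF43, OCLN, RPS15, RPS10, MKI67, IL23R, TBX18, DOCK2, VWA3A, ATP1B1 and ATP1B3 were chosen after their values were seen. Lists are described by counts and medians, without a test. Not every change of a count with a library left out is given. Rises among tubulins, for example, numbered 7 to 9. No sequences or coordinates are printed.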

Additional observations from a re-analysis of the deposited data

How the results depend on the processing

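Of 18905 genes, the 6031 calls numbered 5162 to 5697 when each library was left out in turn. At least 2-fold calls, 562 in all, numbered 518 to 606. A stricter test against a 1.5-fold change called 364 genes (150 higher, 214 lower), and 250 of at least 2-fold (108 higher, 142 lower); it asks for a larger change by construction. A filter of at least 1 CPM in 3 libraries left 295 calls of at least 2-fold (139 higher, 156 lower), since it removes genes of low level. RLE size factors (6043), no filter (5801), voom with quality weights (6334), DESeq2 (5123) and a threshold of 0.01 (4488) kept the number of calls within 1.5 times. FGFR1OP stayed called in every alternative, with -1.24 to -1.16 when a library was left out. No scaling moved the median of all genes by more than 0.01. Same-numbered libraries hardly deviated together (r = 0.0437, 0.0126 and 0.00332). Hairpin libraries 1 and 2 correlated best with the scramble library of the same number, and hairpin library 3 with scramble library 2 (r = 0.0341). The numbers were not taken as pairs. With the replicate number as a block 5904 genes were called, 566 at least 2-fold, and FGFR1OP changed by -1.20; APOB was called there (-0.28, adjusted p = 0.0263). Of the 207 named genes, 5 that were not called changed sign. Leaving out a library gave -0.011 to 0.043 for ATF4, -0.089 to 0.047 for CEP350, -0.026 to 0.11 for MKI67, -0.0035 to 0.057 for VIL1 and -0.045 to 0.091 for JUN, which was at -0.0071 with voom. MKI67 was called higher without scramble library 3 (adjusted p = 0.0112). OCLN was called with the 1 CPM filter (adjusted p = 0.0471). Of 605 list medians under an alternative, 115 moved by more than the spread between libraries. These moves fell on 37 of the 55 lists. The cause of these moves was not tested. Depth limits genes below about 1 CPM, and 3 libraries a group limit every value.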
